A study of Mus musculus with 8 samples.

Results

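The enzymes of the pentose phosphate pathway were examined in tendon stem cells (TSCs) grown in 2 media. The rows of the deposited expression table whose symbol was G6pdx, H6pd, Pgls, Pgd, Rpia, Rpe, Tkt, Taldo1, Prps1 or Prps2 were taken, which gave 10 of the 19301 genes in the table. All 10 passed the filter on low values, as did 11710 genes in all. In HFHG medium 2 of these enzymes were higher, H6pd by 78.2% (95% interval 70.6 to 86.1) and Prps2 by 14.0% (3.67 to 25.3). The other dehydrogenase for glucose 6-phosphate, G6pdx, was lower, as were Pgls, Pgd, Rpe, Tkt, Taldo1 and Prps1, by between 9.72% and 26.7%. Rpia did not pass the test.

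The study cultured primary TSCs, isolated by its methods from mouse patellar tendon with collagenase, in low glucose (LG) or high fat, high glucose (HFHG) medium and sequenced their mRNA. There were 4 LG and 4 HFHG libraries, which the study describes as biological replicates. Per the study's text, LG medium held 5.5 mM glucose with DMSO and HFHG medium held a higher glucose concentration with 300 µM palmitic acid, and TSCs were kept in either for 4 days. No modified allele is named for the cells of either group. Glucose and palmitic acid differ together between the groups, so their parts cannot be told apart. DMSO is named for LG medium only, and whether HFHG medium held it too is not stated.

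The pentose phosphate pathway branches from glycolysis at glucose 6-phosphate. Its oxidative branch, which runs in the cytosol, oxidises this sugar to ribulose 5-phosphate and makes NADPH, the reducing agent for glutathione recycling and for lipid synthesis, and a parallel pair of reactions in the endoplasmic reticulum is carried out by H6pd. The non-oxidative branch interconverts sugar phosphates and returns them to glycolysis, and PRPP synthetases activate ribose 5-phosphate for nucleotide synthesis.

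Several genes of the cytosolic oxidative branch are known targets of NRF2, the transcription factor of the antioxidant response, so the promoters of the members were searched for the core of its binding element, TGACNNNGC, on both strands. RefSeq promoters on GRCm38.p6, each with 250 bases before and 50 bases after a transcription start, were found for 10 of the 10 symbols. They made 11 windows, since RefSeq gave 2 starts for Pgd. The 4 windows below belong to the cytosolic dehydrogenases that make NADPH, G6pdx and Pgd, and to H6pd, which changed in the other direction. They are written 5′ to 3′ along the gene, and capitals mark a match of the core.
G6pdx, chrX:74428831-74429130, minus strand: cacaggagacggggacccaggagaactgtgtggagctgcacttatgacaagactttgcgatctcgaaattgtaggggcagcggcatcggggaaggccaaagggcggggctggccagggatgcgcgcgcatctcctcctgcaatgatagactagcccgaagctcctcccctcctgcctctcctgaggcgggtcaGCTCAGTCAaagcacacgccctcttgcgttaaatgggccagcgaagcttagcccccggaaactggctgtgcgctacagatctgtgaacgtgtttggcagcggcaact
Pgd, upstream start, chr4:149166656-149166955, minus strand: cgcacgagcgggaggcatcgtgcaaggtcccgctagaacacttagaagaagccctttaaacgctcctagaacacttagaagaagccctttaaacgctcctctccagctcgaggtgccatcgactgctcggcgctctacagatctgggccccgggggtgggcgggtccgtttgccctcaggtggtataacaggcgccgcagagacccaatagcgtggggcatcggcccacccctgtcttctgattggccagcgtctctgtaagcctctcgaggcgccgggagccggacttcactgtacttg
Pgd, downstream start, chr4:149166033-149166332, minus strand: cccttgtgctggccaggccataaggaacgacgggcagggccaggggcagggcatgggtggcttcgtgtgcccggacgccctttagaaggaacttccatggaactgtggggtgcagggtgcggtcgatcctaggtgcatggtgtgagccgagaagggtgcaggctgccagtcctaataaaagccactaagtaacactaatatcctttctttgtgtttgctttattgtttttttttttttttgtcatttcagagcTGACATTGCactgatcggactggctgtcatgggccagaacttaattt
H6pd, chr4:150003187-150003486, minus strand: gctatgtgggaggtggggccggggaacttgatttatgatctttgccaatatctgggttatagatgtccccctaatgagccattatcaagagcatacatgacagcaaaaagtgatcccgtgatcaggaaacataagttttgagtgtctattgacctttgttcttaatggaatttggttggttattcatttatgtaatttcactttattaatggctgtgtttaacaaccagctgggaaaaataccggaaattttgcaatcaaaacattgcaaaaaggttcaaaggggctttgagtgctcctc

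The core was present in the G6pdx window, at base 194 on the strand opposite to the gene. It was also in the downstream Pgd window, at base 254 on the strand of the gene. None of the other 9 windows held these letters, the upstream Pgd window included. Since 250 bases of each window come before the start, the G6pdx match lies before its start. The Pgd match lies after its start, inside the gene, and so is not an upstream promoter match. The bases before this start close with a run of T and then cag, the form of an intron end. Read in codons from the gc just before the match, the window runs to its end without a stop codon. The match can thus be read as coding sequence behind an exon boundary, and it was not compared with the Pgd protein. Of the 32851 promoters of all genes, 12.4% held the core. The E-box CACGTG was in 7.15% of all promoters and in 0 of the 11 windows. Matches of letters describe the windows and do not show binding. The H6pd window had a GC content of 39.3%, against 51.3 to 67.3% in the other 10 windows, and its RefSeq start lies 5786 bases inside the H6pd gene as GENCODE M21 gives it. The G6pdx start lies 313 bases, the upstream Pgd start 65 bases and the downstream Pgd start 688 bases inside the GENCODE gene.

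The libraries held between 34308108 and 37362725 reads. The first principal component of all tested genes, with 81.0% of the variance, separated the media, and the second, with 4.18%, set LG replicate 4 apart. Tendon and fibroblast markers were present, with the sum over 12 genes at 2598 to 2638 FPKM (fragments per kilobase of gene, scaled to the depth of the library) in HFHG and 1720 to 1764 in LG. Of these, 9 passed the test as higher in HFHG and 2 as lower. The tendon transcription factor Scx was low, at 1.53 to 2.88 FPKM in HFHG and 0.983 to 1.76 in LG, and Tnmd was at most 1.19 FPKM. Both were among those higher in HFHG, with log2 fold changes of 0.61 for Scx and 0.86 for Tnmd (limma adjusted p = 0.0138 and 0.0164). The study's qPCR of TSCs in these media reported both as lower in HFHG, and the reason for this difference was not tested. Macrophage markers were also present. Their sum over 11 genes was 1767 to 1816 FPKM in HFHG and 1956 to 2042 in LG, most of it from Lyz2, and 9 of the 10 tested were lower in HFHG, while Ptprc was not called and Cd163 did not reach 0.5 FPKM. Of 5 adipocyte markers, 4 (Adipoq, Plin1, Cidec and Lep) were below the filter, and Fabp4 alone carried the sum of 66.4 to 72.9 FPKM in HFHG and 23.4 to 29.3 in LG. The sums of the endothelial, skeletal muscle and mural markers stayed at or below 5.42 FPKM in every library. What these cell types contributed to the enzyme values was not tested, and in bulk RNA fewer cells of a type and less RNA per cell cannot be told apart.

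**Figure D1:**
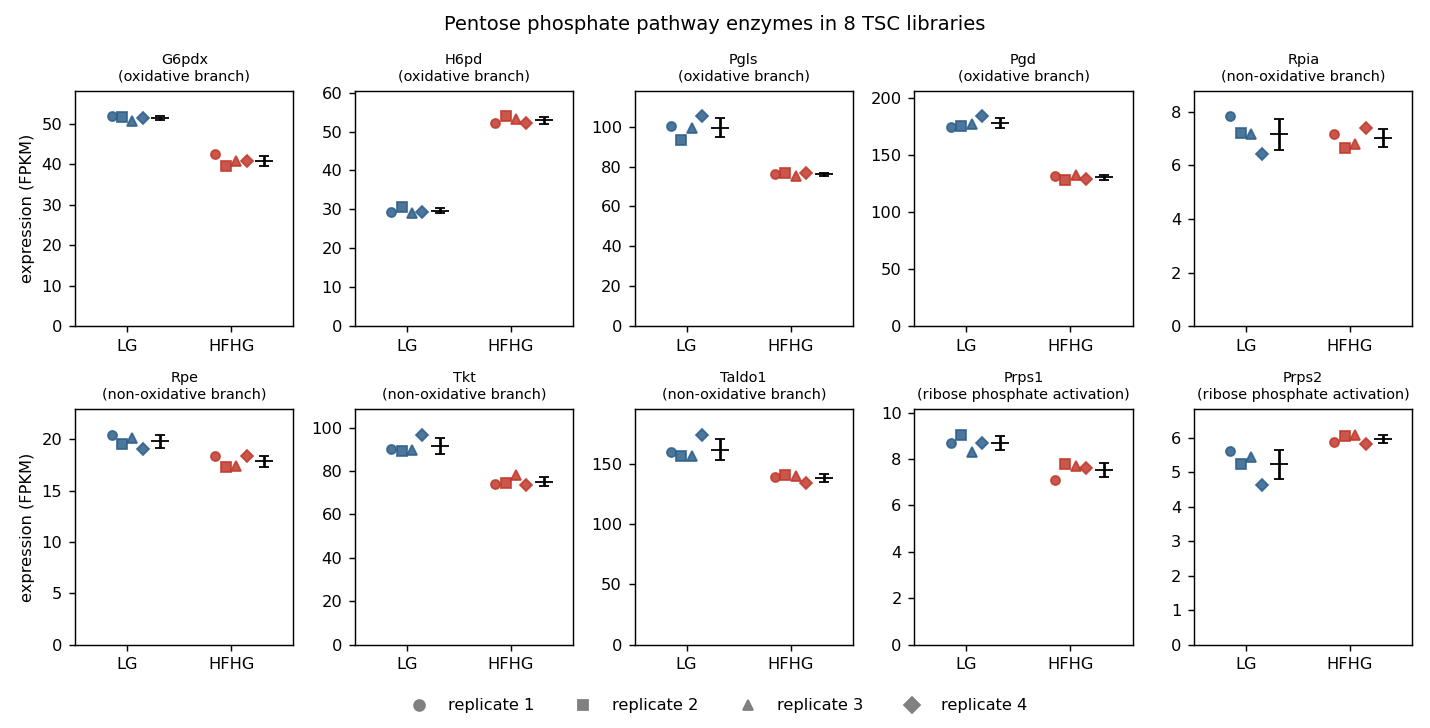
Expression of the 10 enzymes in FPKM (vertical axis, from 0, with its own scale in each panel) in the 4 LG libraries (blue) and the 4 HFHG libraries (red), with 1 symbol per replicate number and the mean ± SD in black. The groups do not overlap in 9 panels, and in the Rpia panel they do.

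The oxidative branch begins with glucose 6-phosphate dehydrogenase, the rate-limiting enzyme of the pathway. Its gene G6pdx (chromosome X, 74409483 to 74429194, minus strand, mm10) was at 42.6, 39.5, 40.9 and 40.8 FPKM in HFHG replicates 1 to 4. In LG replicates 1 to 4 it was at 51.9, 51.8, 50.8 and 51.5 FPKM. Every HFHG library was below every LG library. The mean was 40.9 ± 1.26 FPKM in HFHG and 51.5 ± 0.533 FPKM in LG as mean ± SD of 4 libraries, which gave a log2 fold change of -0.33 (SE 0.0292, adjusted p = 5.65e-07, limma with Benjamini-Hochberg adjustment over all 11710 tested genes). Its values rest on 3268 to 4400 reads per library.

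H6pd (chromosome 4, 149979475 to 150009023, minus strand) encodes the hexose 6-phosphate dehydrogenase of the endoplasmic reticulum lumen, an enzyme that carries out both the dehydrogenase and the lactonase step there. It was at 52.1, 54.0, 53.2 and 52.2 FPKM in HFHG replicates 1 to 4 and at 29.4, 30.6, 29.1 and 29.4 FPKM in LG replicates 1 to 4. All 4 HFHG libraries were far above the 4 LG libraries. H6pd had a log2 fold change of 0.83 (SE 0.0287, limma adjusted p = 7.86e-11), the largest in size of the 10 enzymes in either direction. Among all tested genes 5.41% had a higher log2 fold change than H6pd. With 8001 to 15420 reads per library, its counting error was below that of 8 of the other 9 enzymes.

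Pgls (chromosome 8, 71592176 to 71601092, plus strand), the 6-phosphogluconolactonase of the cytosol, was at 76.4, 76.7, 75.2 and 76.8 FPKM in HFHG replicates 1 to 4 and at 100.2, 93.4, 99.3 and 105.4 FPKM in LG replicates 1 to 4. The HFHG values lay within a narrow band below all LG values, which were more spread. The change of Pgls on the log2 scale was -0.38 (SE 0.0333, limma adjusted p = 5.12e-07).

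Pgd (chromosome 4, 149149991 to 149166771, minus strand), the 6-phosphogluconate dehydrogenase that makes the second NADPH, was at 131.3, 127.8, 132.2 and 129.0 FPKM in HFHG replicates 1 to 4 and at 174.3, 175.0, 176.9 and 183.8 FPKM in LG replicates 1 to 4. The groups were clearly apart, with LG replicate 4 the highest library. Its log2 fold change of -0.45 (SE 0.0245, limma adjusted p = 6.11e-09) was the lowest among the 10 enzymes, and 11.2% of all tested genes had a lower one.

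The sum of the 3 cytosolic oxidative enzymes, G6pdx, Pgls and Pgd, was 247 ± 2.64 FPKM in HFHG and 329 ± 8.65 FPKM in LG (SD, n = 4 each). The sums of the groups did not overlap, also when the exon lengths of GENCODE M21 replaced the lengths behind the deposited values (93.3 to 96.8 in HFHG and 123 to 129 in LG). With H6pd added the direction of the sum turned with the length, from 300.1 ± 2.08 FPKM in HFHG and 358 ± 8.29 FPKM in LG by the deposited values to 174 to 176 in HFHG and 169 to 173 in LG with the GENCODE lengths.

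Among the non-oxidative enzymes, Rpia and Rpe act on ribulose 5-phosphate. Rpia (chromosome 6, 70765720 to 70792232, minus strand), the isomerase that makes ribose 5-phosphate, was at 7.19, 6.67, 6.82 and 7.41 FPKM in HFHG replicates 1 to 4 and at 7.85, 7.23, 7.18 and 6.44 FPKM in LG replicates 1 to 4. The ranges overlapped, and both the lowest and the highest values came from LG libraries. The log2 fold change was -0.03 with a 95% interval of -0.17 to 0.11 (limma adjusted p = 0.714), so a change of up to 10.9% down or 7.91% up lies within the interval. With 406 to 480 reads per library, Rpia had the fewest reads of the 10 genes, and its sign turned with the scaling and without LG replicate 1.

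Rpe (chromosome 1, 66700831 to 66719805, plus strand), the epimerase that makes xylulose 5-phosphate, was at 18.4, 17.3, 17.4 and 18.4 FPKM in HFHG replicates 1 to 4 and at 20.5, 19.5, 20.1 and 19.1 FPKM in LG replicates 1 to 4. All HFHG values were below the LG values, by a small margin. Rpe had a log2 fold change of -0.15 (SE 0.0378, limma adjusted p = 0.00420), and it no longer passed when the libraries were rescaled to the same FPKM sum (-0.09, adjusted p = 0.0807).

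Transketolase and transaldolase pass carbon units between sugar phosphates. Tkt (chromosome 14, 30548359 to 30574720, plus strand) was at 73.9, 74.4, 78.3 and 73.8 FPKM in HFHG replicates 1 to 4 and at 90.0, 89.4, 89.6 and 96.8 FPKM in LG replicates 1 to 4. Within each medium 1 library stood above the other 3, and the groups still did not overlap. The log2 fold change of Tkt was -0.28 (SE 0.0324, limma adjusted p = 6.69e-06).

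Taldo1 (chromosome 7, 141392199 to 141402968, plus strand) was at 139.5, 141.2, 140.3 and 134.0 FPKM in HFHG replicates 1 to 4 and at 160.4, 157.0, 156.7 and 174.5 FPKM in LG replicates 1 to 4. LG replicate 4 was again the highest. The log2 fold change of Taldo1 was -0.22 (SE 0.0346, limma adjusted p = 9.68e-05). The sum of the 4 non-oxidative enzymes was 239 ± 3.83 FPKM in HFHG and 281 ± 11.2 FPKM in LG (SD, n = 4 each).

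The PRPP synthetases moved in opposite directions. Prps1 (chromosome X, 140456613 to 140476140, plus strand) was at 7.07, 7.77, 7.68 and 7.61 FPKM in HFHG replicates 1 to 4 and at 8.71, 9.05, 8.29 and 8.69 FPKM in LG replicates 1 to 4, so that no HFHG library reached an LG value. Its log2 fold change was -0.20 (SE 0.0490, limma adjusted p = 0.00284). Reads of Prps1 and of its near-identical copy Prps1l3, which was also lower (log2 fold change -0.28, limma adjusted p = 0.00102), may be split between them, since how reads with several matches were counted is not given in the sources used here.

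Prps2 (chromosome X, 167346322 to 167382749, minus strand) was at 5.88, 6.05, 6.09 and 5.83 FPKM in HFHG replicates 1 to 4 and at 5.604, 5.24, 5.43 and 4.64 FPKM in LG replicates 1 to 4. Its HFHG values were all above the LG values, though LG replicate 1 came close to them. The log2 fold change was 0.19 (SE 0.0629, limma adjusted p = 0.0189). After quantile normalization it was 0.12 and did not pass (adjusted p = 0.1002). The sum of Prps1 and Prps2 was 13.5 ± 0.399 FPKM in HFHG and 13.9 ± 0.477 FPKM in LG (SD, n = 4 each), and these sums overlapped, as they did with the GENCODE lengths.

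In total 9 of the 10 enzymes passed an adjusted p of 0.05, 2 of them higher and 7 lower in HFHG. Among all 11710 tested genes 64.8% passed, 34.0% as higher and 30.8% as lower, so passing the test was common in these libraries. The median log2 fold change was -0.21 over the 10 enzymes and 0.02 over all tested genes, and the median absolute change was 0.25 in both. The values of the groups did not overlap for 9 of the 10 enzymes (exact two-sided permutation p = 0.0286 each, the smallest that the 70 arrangements of 4 against 4 allow), and for 59.2% of all tested genes. With the study's criterion of a fold above 2 and an unadjusted p below 0.05, 0 of the 10 enzymes were called, although 9 had a limma p below 0.05, and 5.33% of all tested genes met it.

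**Figure D2:**
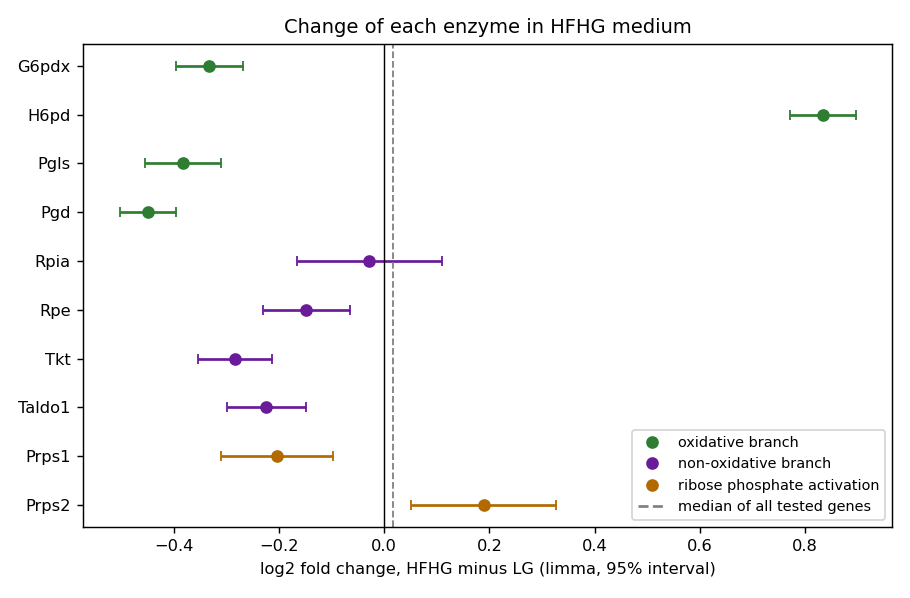
Log2 fold change of each enzyme, HFHG minus LG (horizontal axis), with its 95% interval from limma, n = 4 libraries per group. H6pd at 0.83 and Prps2 at 0.19 lie right of 0 with their whole intervals, 7 enzymes lie left of it with theirs, and the interval of Rpia, at -0.03, includes 0; the dashed line is the median of all tested genes at 0.02.

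The order of the levels per length was read first from the deposited FPKM. In LG it was Pgd, Taldo1, Pgls, Tkt, G6pdx, H6pd, Rpe, Prps1, Rpia and Prps2, and the ranges overlapped between Pgd and Taldo1 and between Pgls and Tkt. In HFHG Taldo1 stood above Pgd and H6pd above G6pdx on this scale, and the ranges overlapped between Pgls and Tkt and between Prps1 and Rpia. These orders depend on the gene length behind each FPKM value. It was 7923 bases for H6pd and 9680 for Prps2 in the deposited values, against 5236 and 3873 bases of exons in GENCODE M21. For the other enzymes the GENCODE length was the longer. It differed most for Pgls (3770 against 883), Rpia (5359 against 1772), Pgd (6447 against 2287) and Tkt (7355 against 3227). The GENCODE length joins all annotated exons of a gene, and which length fits the transcripts of these cells was not tested. With the GENCODE exon lengths, an alternative added after the values were seen, Taldo1 was above Pgd in every library (ratio 1.47 to 1.57 in LG and 1.72 to 1.83 in HFHG). H6pd was above G6pdx in every library too, so both differences in order between the media named above were gone. Another one appeared between H6pd and Pgd. In HFHG H6pd was the higher, at 78.8 to 81.7 against 45.3 to 46.9. In LG Pgd was the higher, at 61.8 to 65.2 against 44.0 to 46.3. The fold changes of the genes do not depend on the length.

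Within each library, 5 ratios of paired enzymes were compared between the media by permuting the libraries exactly (two-sided), and the p-values were adjusted over the 5. In HFHG replicates 1 to 4 the ratio of H6pd to G6pdx was 1.22, 1.37, 1.30 and 1.28, whereas in LG replicates 1 to 4 it was 0.567, 0.590, 0.573 and 0.570. All HFHG ratios were above all LG ratios. With the GENCODE exon lengths the ratio was 2.44 to 2.72 in HFHG and 1.13 to 1.18 in LG, so which of the 2 was higher in LG depends on the length, and the difference between the media does not. The mean log2 ratio rose by 1.17 (exact permutation p = 0.0286, adjusted p = 0.0357). This p follows from the values of the genes, since each separates the media without overlap and in opposite directions. The share of H6pd in the sum of both was 55.0 to 57.7% in HFHG and 36.2 to 37.1% in LG by the deposited values, and 70.9 to 73.2% and 53.0 to 54.1% with the GENCODE lengths.

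In HFHG replicates 1 to 4 the ratio of Prps2 to Prps1 was 0.831, 0.779, 0.793 and 0.766, whereas in LG replicates 1 to 4 it was 0.644, 0.579, 0.655 and 0.534. The groups did not overlap. Prps1 was the higher per length in every library by the deposited values, and Prps2 was with the GENCODE lengths (ratio 1.93 to 2.096 in HFHG and 1.35 to 1.65 in LG). The log2 difference was 0.40 (exact permutation p = 0.0286, adjusted p = 0.0357). Here too the p follows from the opposite separation of the genes and adds no further test.

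The remaining ratios moved less. Pgd to G6pdx was 3.08 to 3.24 in HFHG and 3.36 to 3.57 in LG, a log2 difference of -0.12, and Rpe to Rpia was 2.48 to 2.60 in HFHG and 2.61 to 2.96 in LG, also a difference of -0.12 (exact permutation p = 0.0286 and adjusted p = 0.0357 for each). The edges of the Rpe to Rpia ranges nearly touched, and without any 1 of the HFHG replicates the exact permutation p was 0.0571. Tkt to Taldo1 was 0.527 to 0.558 in HFHG and 0.555 to 0.572 in LG, and these ranges overlapped (difference -0.06, exact permutation p = 0.0571, adjusted p = 0.0571). Without HFHG replicate 3 the difference was -0.075, with an exact permutation p of 0.0286.

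**Figure D3:**
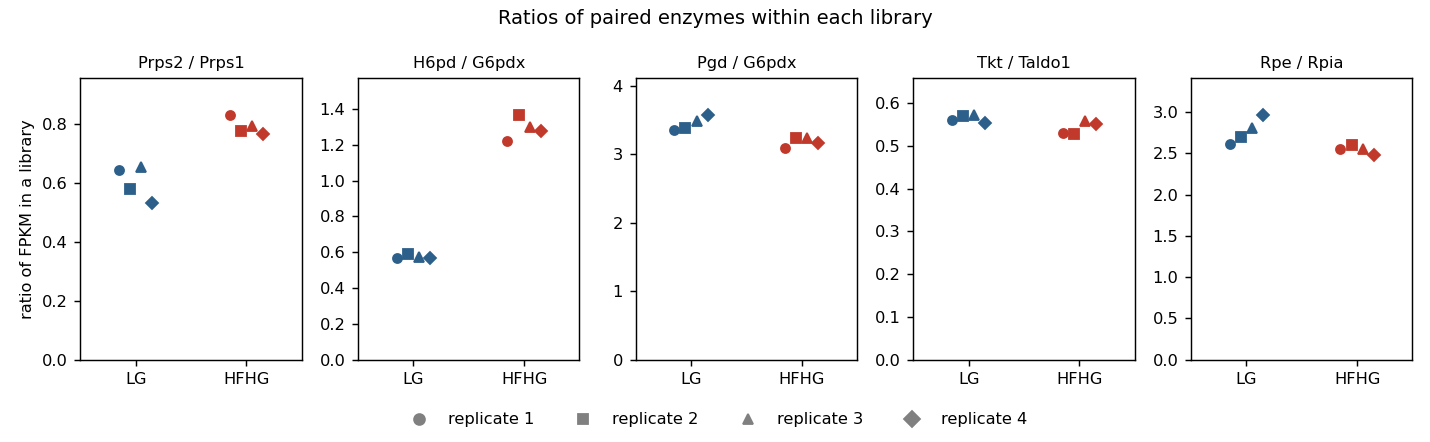
Ratio of the FPKM values of 5 enzyme pairs within each library (vertical axis, from 0, own scale in each panel), with LG in blue, HFHG in red and 1 symbol per replicate number. The H6pd to G6pdx ratio is 0.567 to 0.590 in LG and 1.22 to 1.37 in HFHG, and the Tkt to Taldo1 ratios of the media overlap.

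LG replicate 4, which stood apart on the second principal component, had the highest LG value of Pgls, Pgd, Tkt and Taldo1 and the lowest LG value of Rpia, Rpe and Prps2. Without it the same 9 enzymes passed in the same directions, with log2 fold changes of -0.36 for Pgls, -0.43 for Pgd, -0.26 for Tkt, -0.19 for Taldo1 and 0.13 for Prps2 (limma adjusted p = 0.0396 for Prps2). The Rpe to Rpia difference was -0.09 without it.

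The genes around the pathway were taken from lists of known members of each route. Their counts stand against 34.0% higher and 30.8% lower among all tested genes. Of 17 other pentose phosphate genes, 14 were in the table and 11 passed the filter, of which 2 were higher and 5 lower in HFHG. Shpk, the sedoheptulose kinase that feeds the non-oxidative branch, was higher (log2 fold change 0.92), at 2.93 to 3.48 FPKM in HFHG and 1.46 to 1.85 in LG. Dera, the deoxyribose phosphate aldolase (log2 fold change -0.57), and Pgm1 of the phosphoglucomutases (-0.39) were lower. Of the other phosphoglucomutases, Pgm2 was higher (0.19, limma adjusted p = 0.0051) and Pgm2l1 was not called (0.14, limma adjusted p = 0.102). The transketolase-like genes Tktl1 and Tktl2 stayed below 0.5 FPKM in every library, as did Rgn. The annotation deposited with the values assigns 21 genes besides the 10 to the pathway, a list added after the values were seen, and of its 12 tested genes 2 were higher and 8 lower.

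Genes that supply glucose 6-phosphate were mostly lower, 6 of the 9 tested, with 2 higher. The glucose transporter Slc2a1 was at 166 to 175 FPKM in HFHG and 348 to 363 in LG (log2 fold change -1.04), and hexokinase Hk2 was at 15.9 to 16.8 FPKM in HFHG and 45.1 to 47.0 in LG (-1.49). Slc2a3 (-0.86) and the isomerase Gpi1 (-0.69), which interconverts glucose 6-phosphate and fructose 6-phosphate, were lower too. Of the upper glycolytic genes that share intermediates with the non-oxidative branch, 6 of 7 were lower. Among them were Aldoa (-0.49), Gapdh (-0.46) and Tpi1 (-0.34), and Pfkm alone was higher (0.53). Gapdh stood at only 41.0 to 43.7 FPKM in HFHG and 57.4 to 61.8 in LG, against 680 to 708 and 949 to 1024 for Aldoa. How reads with several matches were counted is not given, and its part in the level of Gapdh was not tested.

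In the endoplasmic reticulum H6pd shares glucose 6-phosphate and NADPH with a few partners. Hsd11b1, the steroid reductase that uses the NADPH made by H6pd, was at 16.5, 16.6, 17.9 and 17.97 FPKM in HFHG replicates 1 to 4 and at 9.14, 9.45, 9.24 and 8.38 FPKM in LG replicates 1 to 4. No library of one medium came near the other (log2 fold change 0.92, limma adjusted p = 5.29e-09). The transporter Slc37a4, which brings glucose 6-phosphate into the lumen, was lower (-0.26, adjusted p = 0.00863), and the phosphatase G6pc3 was higher (0.15, adjusted p = 0.00469). The liver phosphatase G6pc was below the filter.

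Other enzymes that make NADPH or its precursor NADP were split, with 5 higher, 5 lower and 2 not called among the 12 tested. Idh1, the cytosolic isocitrate dehydrogenase, was higher (log2 fold change 0.52), and the folate enzymes Aldh1l2 (-1.25), Mthfd2 (-1.11) and Aldh1l1 (-0.74) were lower. Of 12 enzymes that use NADPH, 6 were lower, 1 higher and 5 not called. The lower ones included thioredoxin reductase Txnrd1 (-0.74), glutathione reductase Gsr (-0.59) and fatty acid synthase Fasn (-0.39), and the higher one was Blvrb (0.26), a biliverdin and flavin reductase.

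Of 12 known NRF2 targets outside the pathway, 10 were lower and 2 higher, with a list median log2 fold change of -0.68 against 0.02 for all tested genes. The log2 fold change was -1.58 for Slc7a11, the cystine carrier, -1.32 for the sulfiredoxin Srxn1, and -1.04 and -0.78 for the glutamate cysteine ligase subunits Gclc and Gclm. Nqo1 (0.25) and Me1 (0.09), named after their values were seen, were the higher ones. Txnrd1 and Gsr stand in this list and among the NADPH users. Whether the NRF2 targets and the oxidative enzymes share a regulator in these cells was not tested.

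Downstream of PRPP, 10 of the 13 purine genes were lower and 2 higher. Ppat, which commits PRPP to purines, was at 1.90 to 2.61 FPKM in HFHG and 3.21 to 3.70 in LG (log2 fold change -0.57), Atic (-0.60) and Adsl (-0.54) were also lower, and Adssl1 was higher (0.65). Of 6 pyrimidine genes 4 were lower, with Dhodh at -0.52, Umps at -0.46 and Cad at -0.28, and Ctps, which makes CTP, was higher (0.58). Of 11 tested proliferation genes 6 were lower, including Mcm2 (-0.94), Pcna (-0.53) and Mcm5 (-0.51), and 3 were higher, including the ribonucleotide reductase subunit Rrm2 (0.61). Mki67 was below the filter. The part of proliferation in the enzyme values was not tested.

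**Figure D4:**
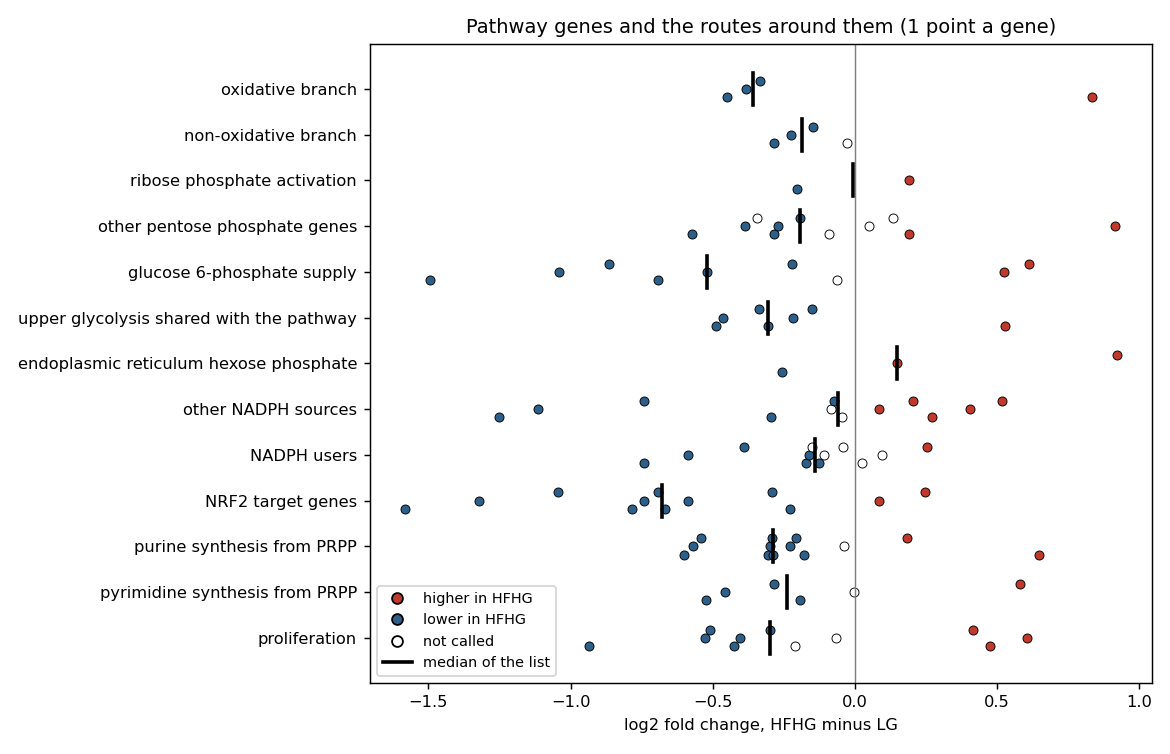
Log2 fold change, HFHG minus LG (horizontal axis), of every tested gene of the 3 enzyme groups and of the lists around them, with 1 point per gene, filled red where higher, blue where lower and white where not called, and a bar at the median of each list. H6pd is the red point of the oxidative branch at 0.83, and the NRF2 targets have the lowest median, -0.68.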

How the data were processed

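mRNA libraries of 4 HFHG and 4 LG cultures of mouse TSCs were prepared by the authors with a stranded kit. The submitters' processing notes name HISAT2 2.1.0 and the genome build mm10. The gene counter and annotation are not given in the sources used here. The deposited values are FPKM per gene and library, in 8 columns that all map to samples by title (0 columns of per-sample values unused). FPKM values of all 19301 genes gave whole reads to within 0.001, so depth was recovered (34308108 to 37362725 reads per library).

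Genes with at least 0.5 FPKM in 4 or more libraries were kept. log2(FPKM + 0.1) was fitted across 11710 genes on both groups with limma 3.58.1 in R 4.3.3, without covariates, with Benjamini-Hochberg adjustment at 0.05. Fold changes are on this scale and understate those of low genes. Ratios were tested by exact two-sided permutation (70 arrangements). Intervals are at 95%. P-values weigh the difference between the groups against the spread between libraries. The study's text does not say whether the replicates of a group came from separate mice. All 10 enzymes were named with every value; of each other list at most 4 called genes, those with the largest change, besides markers and genes below the filter. Nqo1, Me1, Pgm2 and Pgm2l1 are outside this rule. Members and lists were chosen with earlier results of these data known. Same-numbered libraries did not deviate together (correlations from -0.0736 to -0.00558), so the values gave no sign of a pairing by number. They cannot exclude a pairing that leaves little trace in expression. Alternatives changed the pseudocount, filter, scaling, variance model, block and libraries, and fitted recovered reads with voom. Positions are from GENCODE M21 and promoters from RefSeq GRCm38.p6.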

Additional observations from a re-analysis of the deposited data

Results flagged for a closer look

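Among 30 groups of 4 libraries, made of the 10 enzymes and the 5 ratios in each medium, 2 held a library far from the other 3, both for Tkt. In HFHG replicate 3 Tkt was at 78.3 FPKM, with the other HFHG libraries at 73.8 to 74.4. In LG replicate 4 Tkt was at 96.8 FPKM, with the other LG libraries at 89.4 to 90.0. Chance alone marks about 1 in 20 such groups.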

How the results depend on the processing

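Over 18 other settings G6pdx, H6pd, Pgls, Pgd, Tkt, Taldo1 and Prps1 kept their direction and passed in each. Rpe (rescaling to the same sum) and Prps2 (quantile normalization, which left 1 enzyme called higher) each missed the threshold in 1 setting. Rpia, which was never called, changed sign to 0.030 when libraries were rescaled to the same sum and ranged from -0.078 to 0.016 (without LG replicate 1) on leaving out 1 library at a time. With the replicate block, no limma call of an enzyme changed, and the ratio differences kept their values (0.40 for Prps2 to Prps1, 1.17 for H6pd to G6pdx, -0.12 for Pgd to G6pdx and -0.12 for Rpe to Rpia) with an exact p of 0.125 each, the smallest that 16 sign arrangements allow. In the same way the difference of Rpe to Rpia ranged from -0.148 to -0.086, with an exact p of 0.0571 without any 1 of the HFHG replicates, and that of Tkt to Taldo1 ranged from -0.075 (without HFHG replicate 3) to -0.047. The recovered reads were fitted with voom, and no edgeR or DESeq2 model was run on them. Orders and sums of levels across genes depend on the gene length used, and the fold change of a gene does not. Reads per gene of 406 to 649 limit the precision for Rpia and Prps1.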
